A study of Homo sapiens with 4 samples.

Results

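The collagen and laminin genes were taken as the protein-coding genes whose whole symbol is COL, a number, A and a number, or LAMA, LAMB or LAMC and a digit. The rule found 56 of the 25702 genes counted, 44 for collagen chains and 12 for laminin chains, and used no measured value. Their RNA was measured by whole transcriptome sequencing (WTS), after poly(A) enrichment, in K562, an established human cell line of chronic myeloid leukemia in blast crisis. In the empty vector group the cells had been transfected with the LeGO-iG2 plasmid alone, and in the RUNX1::ERG group with the same plasmid carrying the fusion, with 2 libraries in each group and no further treatment. The plasmid also makes green fluorescent protein, and the transfection was transient in 1 cell line. No sorting of transfected cells before RNA extraction is described for these libraries, so each one may mix transfected with untransfected cells, although the study describes most K562 cells as taking up plasmid under its protocol. RUNX1::ERG is a leukemia fusion that joins the Runt DNA-binding domain of RUNX1 to the Ets DNA-binding domain of ERG. The comparison asks which transcripts differ when the fusion is present.

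Collagens are proteins of 3 chains wound into a triple helix, which cells fold in the endoplasmic reticulum, secrete and cross-link. Fibrillar collagens form the fibers of connective tissue, collagen IV forms the sheet of basement membranes, collagen VI forms beaded filaments, and other types decorate fibrils, span the cell membrane or sit between basement membrane and stroma. Laminins are cross-shaped trimers of an α, a β and a γ chain that assemble before secretion and found the basement membrane. In bone marrow, megakaryocytes and stromal cells lie among these proteins, and platelets are activated by collagen.

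Library totals ran from 59695387 to 82352144 counts, and a count of 0 allows up to 3 counts, or 0.0364 to 0.0503 CPM (counts scaled to a common library size), for counting error alone. Of the counts from 1 to 10, 66.7% to 68.9% per library were even, as happens where each mate of a fragment adds 1 count, so a count of 2 may stand for a single fragment. The floor of 3 counts takes each count as a separate fragment. If mates were counted singly, the floor would be higher, and the values given below as at least a fold or ratio would be lower. The transfected parts followed the labels. ERG had 4 counts per empty vector library against 80443 and 27218 counts in RUNX1::ERG replicates 1 and 2, and RUNX1 had 4736 and 3453 against 66232 and 28769. Both parts were thus higher in RUNX1::ERG replicate 1 than in replicate 2. MYC, which the study names, had 18147 and 20392 counts against 11279 and 10072 (log2 fold change -1.11, adjusted p = 0.002, edgeR's quasi-likelihood test). All 10 marker genes of K562 cells were tested, and 1 of them had an adjusted p under 0.05, where 4.79% of all genes tested did. It was TAL1 (0.68, adjusted p = 0.025), a call that was lost without RUNX1::ERG replicate 1 (0.64) or replicate 2 (0.7). The replicates are called biological by the study, which does not say whether they came from separate cultures, so p-values measure the spread between these samples, which may be technical.

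The family took a small share of each library. Its counts made up 0.0463% and 0.0383% of the total in empty vector replicates 1 and 2, and 0.0618% and 0.0505% in RUNX1::ERG replicates 1 and 2. In CPM scaled by edgeR's TMM method (normalized CPM), the 44 collagen genes summed to 245 and 233 with the empty vector and to 386 and 325 with RUNX1::ERG, so that both RUNX1::ERG libraries were above both empty vector libraries. The 12 laminin genes summed to 214 and 165 against 218 and 178, and these groups overlapped. In bulk RNA, fewer cells with a transcript and less of it per cell cannot be told apart. The sums were not tested and are given as values.

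Few members carried the family. COL18A1, whose C-terminal part is the source of endostatin, and LAMA5, the laminin α chain found in most adult basement membranes, together held 69.0% and 66.3% of the family's counts in empty vector replicates 1 and 2 and 57.7% and 52.7% in RUNX1::ERG replicates 1 and 2. With COL15A1, COL6A5, LAMB2 and LAMB3 the share was between 84.2% and 88.3% in every library. The filter on low counts kept 33 of the 56 members, of which 21 had a mean of at least 1 normalized CPM and 12 were below it. The other 23 members did not reach the test, with at most 32 counts in a library. Among them COL11A1, COL11A2 and COL22A1 had no count in any library. A gene high in 1 group alone can pass such a filter, and 6 of the 33 members had fewer than 10 counts in some library, so the counts below describe the members tested and not the family.

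**Figure D1:**
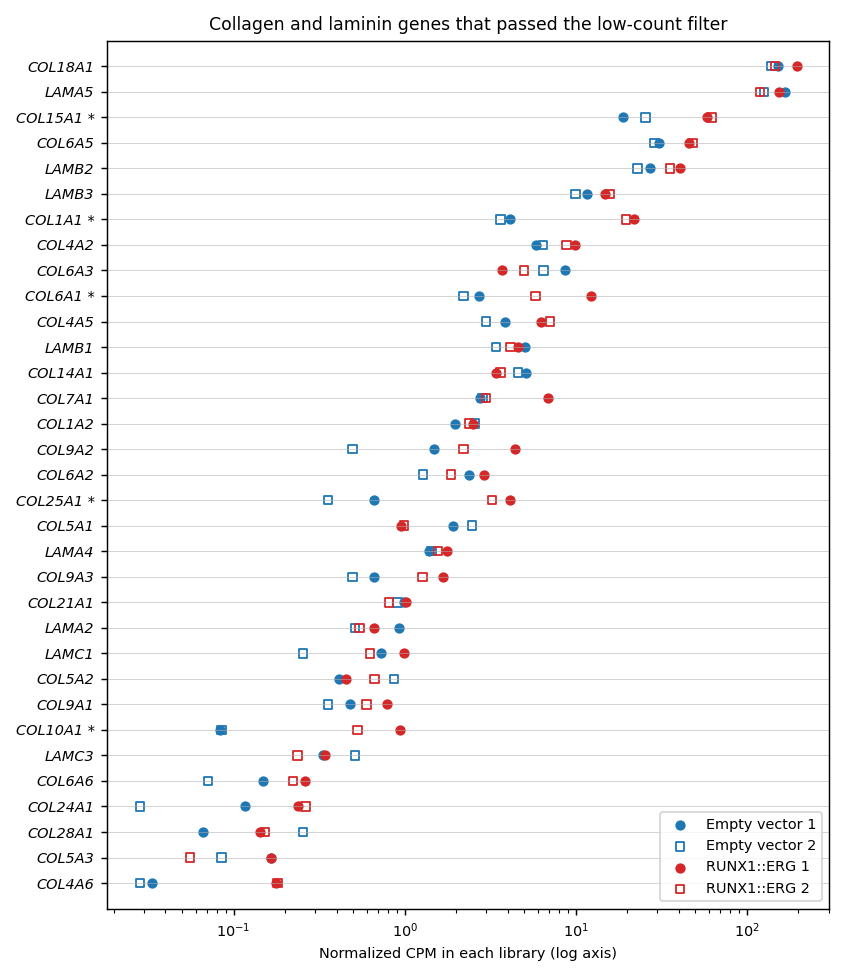
Normalized CPM in each of the 4 libraries (log axis) for the 33 collagen and laminin genes that passed the low-count filter, ordered by their mean, with an asterisk at the 5 genes whose adjusted p was under 0.05. COL18A1 and LAMA5 stand at 119 to 195 normalized CPM in every library, and the points of the 2 groups are clearly apart in COL1A1 and COL15A1.

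COL1A1, COL15A1, COL6A1, COL25A1 and COL10A1 were higher with RUNX1::ERG, by 2.71-fold to 8.58-fold, and no collagen or laminin gene was called lower. These were 5 of the 33 members tested (15.2%), where 4.79% of all 15394 genes tested were called, 3.64% higher and 1.15% lower (edgeR's quasi-likelihood test, adjusted p under 0.05 over all genes tested). All 5 encode collagens. None of the 8 laminin genes tested passed, but at a share of 4.79% few or no calls would be looked for among 8 genes. No contrast between collagen and laminin genes can be drawn from this. Both RUNX1::ERG libraries lay above both empty vector libraries in 18 of the 33 members and below them in 3, where 25.1% and 22.1% of all genes tested did so. The fitted fold change was above 0 in 23 of the 33 members, where 49.8% of all genes were, and its log2 median was 0.61 over the 33 members and 0 over all genes tested. These counts of direction and this median include members such as COL10A1 and COL4A6, which passed the filter only through their RUNX1::ERG counts. They were not taken again under a stricter filter, so they describe the members tested only. Among genes with 10 counts or more in all libraries, a filter that does not favour those that are high in 1 group, 4 of 27 members were called, where 4.51% of all such genes were. In a comparison chosen after seeing the data, 4 of the 21 members with a mean of at least 1 normalized CPM were called, where 4.92% of all such genes were. The number of members called changed with 1 library: it was 3 without RUNX1::ERG replicate 1 and 10 without empty vector replicate 1. The calls over all genes moved in the same direction, from 737 to 286 and 1227.

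**Figure D2:**
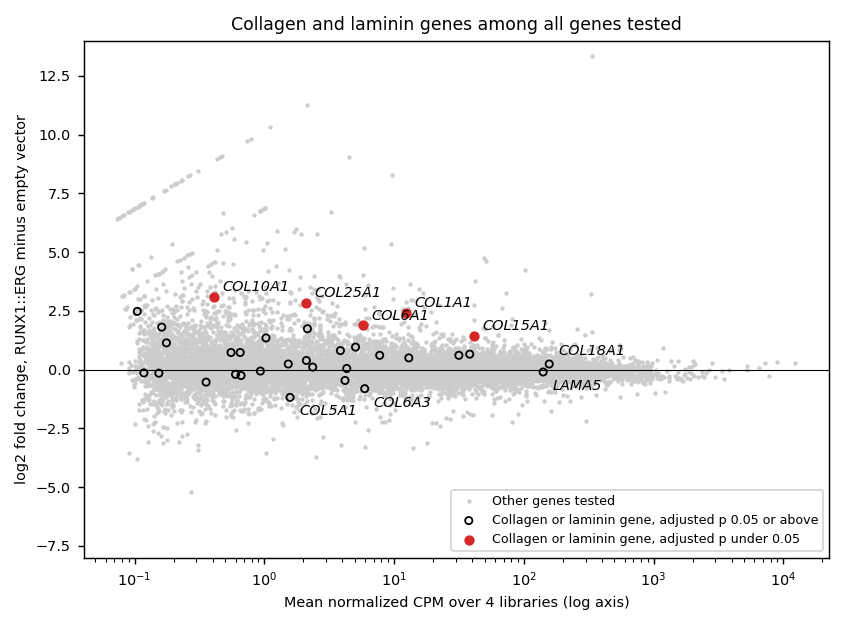
Log2 fold change (RUNX1::ERG minus empty vector) against mean normalized CPM over the 4 libraries (log axis) for all 15394 genes tested, with the 33 collagen and laminin genes as circles and the 5 called ones filled in red. The 5 called genes lie in the upper part of the cloud, from COL15A1 at 1.44 to COL10A1 at 3.10, while COL18A1 and LAMA5 lie near 0.

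Among the fibrillar collagens, COL1A1 rose and its partner chain COL1A2 did not pass the test. Collagen I, the main protein of bone and tendon, is usually a trimer of a pair of COL1A1 chains with 1 COL1A2 chain. COL1A1 (NCBI gene 1277, chromosome 17 of GRCh37, 48261462 to 48278993) had 249 and 255 counts in the empty vector libraries and 1858 and 1406 in the RUNX1::ERG libraries. In normalized CPM it was at 3.88 ± 0.366 (SD, n = 2) and 20.8 ± 1.75 (SD, n = 2), so the difference was far above the spread between replicates. On the log2 scale it rose by 2.42 (SE, the standard error, 0.22, adjusted p = 0.0002, edgeR's quasi-likelihood test), and this estimate ran from 2.33 to 2.52 with each library left out in turn. COL1A2 (chromosome 7, 94024207 to 94060539) had 118 and 182 counts against 212 and 171, a log2 fold change of 0.11 (SE 0.32, adjusted p = 0.92), and the groups overlapped. Per length of the canonical transcript, COL1A1 was at 1.81 and 1.2 times the level of COL1A2 in empty vector replicates 1 and 2, and at 7.52 and 7.05 times in RUNX1::ERG replicates 1 and 2.

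The other fibrillar genes were low. COL5A1, a chain that regulates fibril width, had fewer counts with the fusion, with 115 and 175 counts in the empty vector libraries and 80 and 71 in the RUNX1::ERG libraries. Both RUNX1::ERG libraries were below both empty vector libraries, but the log2 fold change of -1.18 (SE 0.37) did not pass (adjusted p = 0.1, edgeR's quasi-likelihood test). With each library left out in turn, the estimate ran from -1.36 to -0.98. COL5A2 had from 25 to 61 counts, and COL5A3, COL24A1, COL3A1, COL2A1 and COL27A1 had at most 20. COL27A1 was without counts under the empty vector and had 18 and 4 in RUNX1::ERG replicates 1 and 2, which is at least 2.91-fold higher against 3 counts in each empty vector library. It was not tested.

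The 6 collagen IV genes are arranged in 3 head-to-head pairs, each pair read outward from a shared stretch of DNA, and in 2 of the pairs the counts of 1 gene were far above those of the other. The clearest case was COL4A1 and COL4A2, the chains of the collagen IV of most basement membranes. COL4A2 (chromosome 13 of GRCh37, 110958159 to 111165556) had 353 and 453 counts in empty vector replicates 1 and 2 and 835 and 633 in RUNX1::ERG replicates 1 and 2. COL4A1 had no count in 3 libraries and 2 counts in RUNX1::ERG replicate 2. Against a floor of 3 counts, COL4A2 was at least 119 times as high per length as COL4A1 in empty vector replicate 1 and at least 282 times in RUNX1::ERG replicate 1. The whole stretch between the RefSeq start sites of the 2 genes is 126 bases long and is shown because it serves both. It reads toward COL4A2, with capitals at its CCAAT box, on GRCh38.p14 at chr13:110307158-110307283.
COL4A1-COL4A2: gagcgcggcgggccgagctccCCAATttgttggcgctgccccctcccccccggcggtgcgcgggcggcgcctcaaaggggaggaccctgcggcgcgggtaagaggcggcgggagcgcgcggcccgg

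In normalized CPM, COL4A2 itself was at 6.14 ± 0.398 under the empty vector and 9.35 ± 0.777 under RUNX1::ERG (SD, n = 2). Both RUNX1::ERG libraries were above both empty vector libraries, and the log2 fold change of 0.61 (SE 0.23) did not pass (adjusted p = 0.2, edgeR's quasi-likelihood test). COL4A5, which carries the collagen IV of kidney and other specialised basement membranes, had 233 and 211 counts against 531 and 507. Its log2 estimate was 0.96 (SE 0.27, adjusted p = 0.076), and ran from 0.79 to 1.15 with each library left out in turn. Its neighbour COL4A6 had 2 counts per empty vector library against 15 and 13, a log2 fold change of 2.48 (SE 0.91, adjusted p = 0.17). The third pair was near the floor, with at most 12 counts for COL4A3 and 10 for COL4A4. COL4A3 had 12 and 10 counts with the empty vector and 1 and 3 with RUNX1::ERG. Of the 6 genes, 3 were tested and none was called.

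In collagen VI, COL6A1 rose, and its partners COL6A2 and COL6A3 did not pass the test. The classical filament is built from COL6A1, COL6A2 and COL6A3 chains in equal number, and COL6A5 and COL6A6 encode chains that can stand in for COL6A3. COL6A1 (NCBI gene 1291, chromosome 21 of GRCh37, 47401684 to 47424964) had 163 and 156 counts in the empty vector libraries and 1035 and 417 in RUNX1::ERG replicates 1 and 2. In normalized CPM this was 2.46 ± 0.349 (SD, n = 2) against 9.04 ± 4.58 (SD, n = 2). The estimate was a log2 fold change of 1.88 (SE 0.36, adjusted p = 0.014, edgeR's quasi-likelihood test). The RUNX1::ERG replicates differed widely, and without RUNX1::ERG replicate 1 the value was 1.24 and no longer passed (adjusted p = 0.17). COL6A2, which lies beside it on chromosome 21, had 144 and 90 counts against 246 and 134, with a log2 fold change of 0.39 (SE 0.4, adjusted p = 0.69).

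COL6A3 had fewer counts with the fusion, with 522 and 456 counts against 310 and 357 and both RUNX1::ERG libraries below both empty vector libraries. Its log2 fold change of -0.81 (SE 0.28) did not pass (adjusted p = 0.15, edgeR's quasi-likelihood test). The estimate ran from -1.05 to -0.59 with each library left out in turn. Per length, COL6A1 was at 0.782 and 0.857 times the level of COL6A3 with the empty vector, and at 8.37 and 2.93 times in RUNX1::ERG replicates 1 and 2. The most abundant chain of the type was COL6A5 (chromosome 3, 130064359 to 130203690), with 1840 and 2029 counts against 3868 and 3451. At 29.7 ± 1.26 and 46.9 ± 1.5 (SD, n = 2) normalized CPM, its groups were well apart. The log2 fold change of 0.66 (SE 0.17) lay just outside the threshold (adjusted p = 0.052, edgeR's quasi-likelihood test). It passed with library totals, no filter, DESeq2, a replicate block and halved counts, with adjusted p-values from 0.0095 to 0.048. It did not pass with RLE scaling, with voom or with at least 10 counts in every library. As each library was left out, the estimate ran from 0.62 to 0.7. COL6A6 had at most 22 counts. COL28A1, a collagen with similar domains, had from 4 to 18.

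The multiplexins, a pair of basement membrane collagens with interrupted helices and sugar side chains, differed in size of change. COL15A1 (NCBI gene 1306, chromosome 9 of GRCh37, 101705461 to 101833074) had 1136 and 1805 counts in the empty vector libraries and 4943 and 4448 in the RUNX1::ERG libraries. It was at 22.2 ± 4.76 (SD, n = 2) against 60.3 ± 2.29 (SD, n = 2) normalized CPM, the highest level of the 5 called members. The estimate was a log2 fold change of 1.44 (SE 0.19, adjusted p = 0.0021, edgeR's quasi-likelihood test). It ran from 1.23 to 1.67 with each library left out in turn, and the call was kept in each case. COL18A1 (chromosome 21, 46825080 to 46933634) was the most abundant member, with 9067 and 9743 counts against 16403 and 10492. At 151 and 138 normalized CPM against 195 and 146, it had a log2 fold change of 0.24 (SE 0.17, adjusted p = 0.55) and overlapping groups. Of its annotated exon bases, 18.5% lie opposite exons of SLC19A1, a folate carrier gene with 4096 to 8176 counts. The strand setting of the counting is not given in the sources used here, so it is not known to which gene, if any, reads in that stretch were assigned. The called COL15A1 and COL1A1 share 2.1% and 0.7% of their exon bases with RNAs of the opposite strand that were not counted, and COL6A1, COL25A1 and COL10A1 share none.

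Of the 4 transmembrane collagens, COL25A1 was called higher and the others had at most 6 counts in a library. COL25A1 makes a membrane collagen of neurons and developing muscle that is known from amyloid plaques. It (NCBI gene 84570, chromosome 4 of GRCh37, 109729881 to 110223908) had 40 and 25 counts with the empty vector and 346 and 232 with RUNX1::ERG. The estimate was a log2 fold change of 2.85 (SE 0.41, adjusted p = 0.003, edgeR's quasi-likelihood test), with a range from 2.46 to 3.36 and the call kept as each library was left out. At 0.509 ± 0.219 and 3.67 ± 0.62 (SD, n = 2) normalized CPM it stayed low in both groups.

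COL10A1, the collagen of hypertrophic cartilage, had 5 and 6 counts in the empty vector libraries and 79 and 38 in the RUNX1::ERG libraries. It (NCBI gene 1300, chromosome 6 of GRCh37, 116440072 to 116479910) had a log2 fold change of 3.1 (SE 0.65, adjusted p = 0.022, edgeR's quasi-likelihood test), the largest estimate among the members tested. The value rests on few reads and did not pass without RUNX1::ERG replicate 1 (2.63, adjusted p = 0.26). COL7A1, which forms the anchoring fibrils of skin, had 166 and 201 counts against 577 and 215. RUNX1::ERG replicate 1 carried that difference, and the log2 fold change of 0.81 (SE 0.38, adjusted p = 0.29) was 0.09 without it. COL8A1, COL8A2 and COL26A1 had at most 12 counts.

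Of the 10 fibril-associated collagens, 5 were tested and none was called. The 3 chains of cartilage collagen IX all had more counts with RUNX1::ERG. COL9A2 had 90 and 35 counts against 373 and 158, a log2 fold change of 1.74 (SE 0.52, adjusted p = 0.091, edgeR's quasi-likelihood test). The COL9A2 estimate depended on single libraries and ran from 1.15 to 2.73 with each library left out in turn. COL9A3 had 40 and 35 against 142 and 91, at 1.35 (SE 0.43, adjusted p = 0.11). COL9A1 had 29 and 25 against 66 and 43, at 0.73 (SE 0.5, adjusted p = 0.51). For each chain the groups did not overlap. COL14A1 was at 307 and 324 counts against 287 and 262, and at -0.46 (SE 0.27, adjusted p = 0.43). COL21A1 had 58 to 86 counts and overlapping groups. COL12A1 and COL20A1 had at most 7 counts. COL16A1 had 2 and 4 counts against 32 and 9, and COL19A1 had none against 13 and 9, which is at least 3.03-fold higher against the floor of 3 counts in each empty vector library. Neither was tested, and COL19A1 shares exon bases with LMBRD1 on the opposite strand, which had 2071 to 3141 counts.

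**Figure D3:**
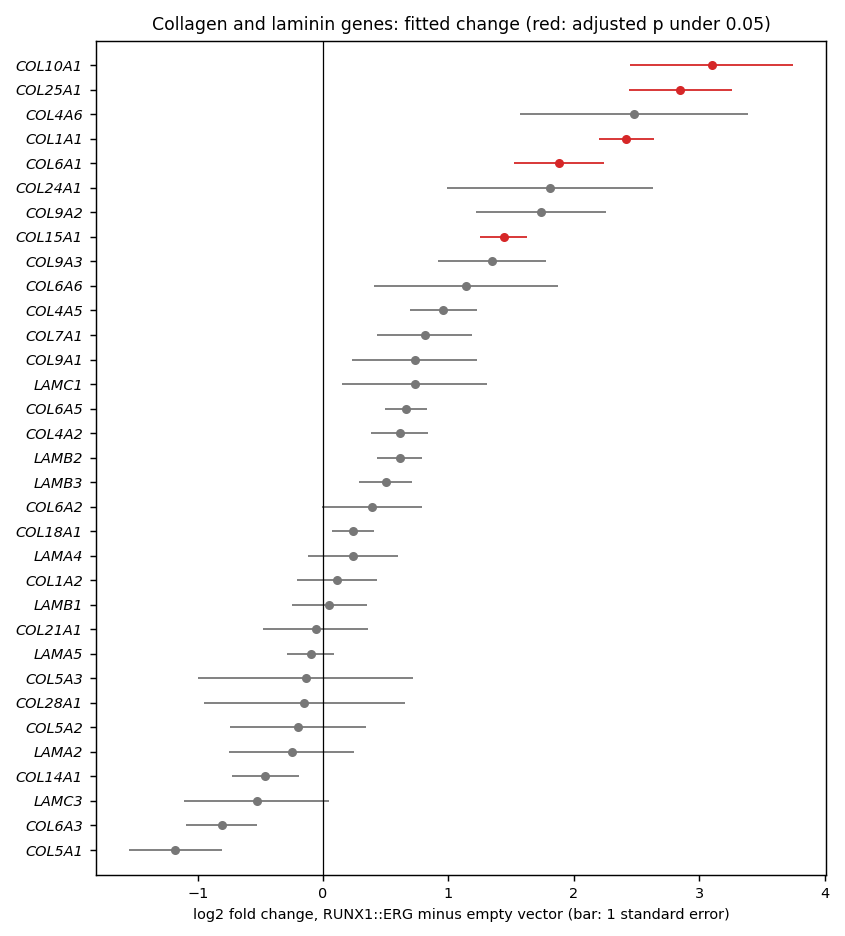
Fitted log2 fold change (RUNX1::ERG minus empty vector) of the 33 collagen and laminin genes tested, with bars of 1 standard error and the 5 called genes in red. COL10A1, COL25A1, COL1A1, COL6A1 and COL15A1 lie between 1.44 and 3.10, COL5A1 has the lowest value at -1.18, and genes with few counts such as COL4A6 and COL24A1 have wide bars.

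Among the laminin genes, LAMA5, LAMB2 and LAMB3 were far above the γ chain genes LAMC1 and LAMC3. Every laminin trimer holds 1 γ chain, and LAMC1 supplies it in most tissues. LAMA5 (chromosome 20 of GRCh37, 60883011 to 60942368) had 10019 and 8862 counts in the empty vector libraries and 12973 and 8551 in the RUNX1::ERG libraries. LAMC1 had 44 and 18 against 84 and 45, with overlapping groups in normalized CPM (log2 fold change 0.73, SE 0.58, adjusted p = 0.58, edgeR's quasi-likelihood test). Per length, LAMA5 was at 158 and 342 times the level of LAMC1 with the empty vector, and at 107 and 132 times with RUNX1::ERG. LAMC3 had 17 to 36 counts. The length is that of a single annotated transcript, and ratios between genes are approximate.

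LAMA5 did not differ beyond the spread, at 146 ± 28.8 and 136 ± 24.7 (SD, n = 2) normalized CPM (log2 fold change -0.1, SE 0.19, adjusted p = 0.86, edgeR's quasi-likelihood test). LAMB2, the β chain of muscle and kidney laminins, had 1635 and 1622 counts against 3433 and 2559. At 0.61 (SE 0.18) it did not pass (adjusted p = 0.096), with both RUNX1::ERG libraries above both empty vector libraries. Its estimate ran from 0.49 to 0.73 with each library left out in turn. LAMB3 encodes a β chain of the skin laminin that holds LAMA3. It had 699 and 703 counts against 1245 and 1129, at 0.5 (SE 0.21, adjusted p = 0.24), while LAMA3 had at most 6 counts. LAMB1, the widespread β chain, had 241 to 389 counts and a log2 fold change of 0.05 (SE 0.3, adjusted p = 0.96). Of the other α chains, LAMA4 had 83 to 148 counts, LAMA2 had 36 to 56, and LAMA1 had at most 4. LAMB4 had at most 10. LAMA5, LAMB1 and COL9A3 share 1.7%, 1.6% and 3.2% of their exon bases with ADRM1, DLD and TCFL5 on the opposite strand. As the strand setting is not given, it is not known to which gene, if any, reads there were assigned.

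**Figure D4:**
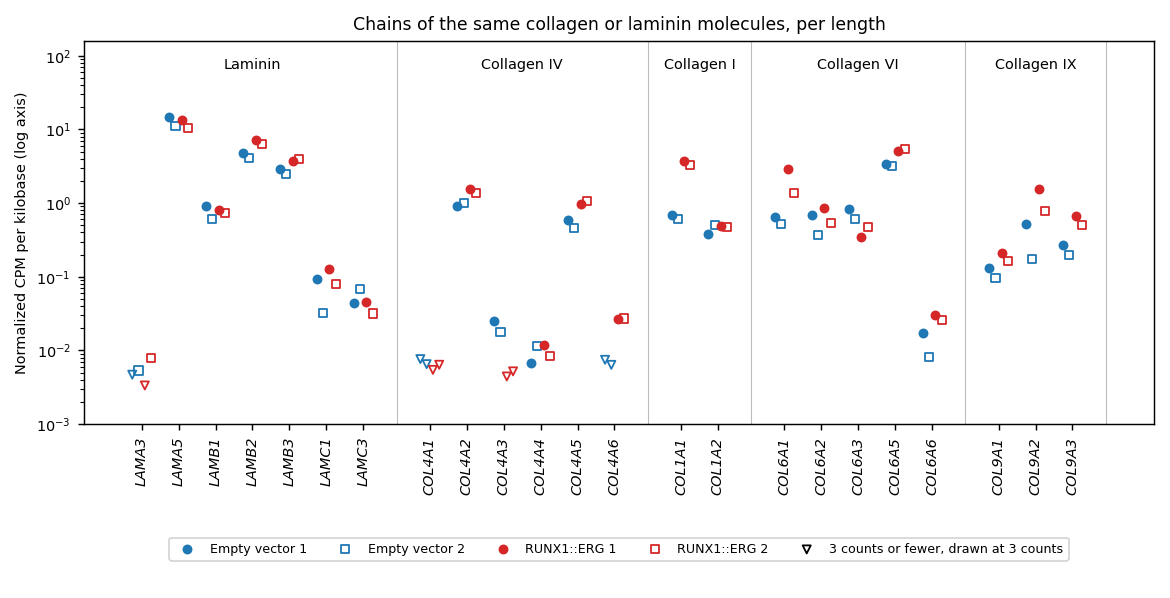
Level per length, as normalized CPM per kilobase of the canonical transcript (log axis), of chains that belong to the same collagen or laminin type, in each of the 4 libraries; triangles mark 3 counts or fewer and are drawn at 3 counts. LAMA5, LAMB2 and LAMB3 lie far above LAMC1, LAMC3 and LAMA3, COL4A2 lies far above COL4A1 in every library, and COL1A1 and COL6A1 pull away from COL1A2, COL6A2 and COL6A3 with RUNX1::ERG.

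The called members were set against the transfected genes in the same libraries. ERG was at 954 normalized CPM in RUNX1::ERG replicate 1 and 379 in replicate 2. COL6A1 had the same order, at 12.3 and 5.8, and so did COL10A1, at 0.937 and 0.529, and COL25A1, at 4.1 and 3.23. COL1A1 also had this order, at 22 and 19.6, and COL15A1 was slightly lower in replicate 1, at 58.6 and 61.9. The empty vector replicates, which carry no fusion, had the same order for COL6A1 (2.71 and 2.21), COL25A1 (0.664 and 0.355) and COL1A1 (4.13 and 3.62). COL10A1 (0.083 and 0.0851) and COL15A1 (18.9 and 25.6) had the other order there. With 2 libraries no relation between the members and the fusion can be tested. Of the 27 members with at least 10 counts in every library, 19 were higher in RUNX1::ERG replicate 1 than in replicate 2, and 19 were higher in empty vector replicate 1 than in replicate 2.

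Promoters were read from the RefSeq table on GRCh38.p14, which held 55 start sites of 41 members, among them the called genes COL15A1, COL25A1 and COL10A1. COL1A1 and COL6A1 were not among them. The 250 bases before the start are shown for COL15A1, the most abundant called member, at chr9:98943657-98943906 (plus strand), and for COL25A1, at chr4:109302659-109302908 (minus strand). ERG belongs to the ETS factors, for which GGAAG was searched as a form of their site, and RUNX1 binds TGTGGT or TGCGGT. These letters were searched on both strands and are in capitals where found. Other forms of the ETS site, such as GGAA without the last G, were not searched and are not marked.
COL15A1: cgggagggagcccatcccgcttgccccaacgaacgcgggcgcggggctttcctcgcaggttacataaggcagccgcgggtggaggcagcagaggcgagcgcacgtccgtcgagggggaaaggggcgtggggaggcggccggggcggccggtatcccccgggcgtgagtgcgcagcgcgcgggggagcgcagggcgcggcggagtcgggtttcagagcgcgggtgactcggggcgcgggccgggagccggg
COL25A1: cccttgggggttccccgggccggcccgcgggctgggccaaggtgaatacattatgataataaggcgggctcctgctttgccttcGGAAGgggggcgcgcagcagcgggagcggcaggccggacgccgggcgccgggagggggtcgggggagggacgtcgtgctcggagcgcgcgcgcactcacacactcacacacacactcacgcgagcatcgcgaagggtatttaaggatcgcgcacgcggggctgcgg
COL15A1 held none of the 3 motifs in this window and 76.8% G or C. COL10A1, with 3 start sites in the table, held none of them before any start. The windows of both genes do hold the shorter GGAA, so they do not lack every form of the ETS site. COL25A1 held 1 GGAAG, 162 to 166 bases before its start. Across all 35116 promoters of this length, 65.1% held GGAAG, 11.0% held TGTGGT and 5.84% held TGCGGT. Of the 55 promoters of members, 33 held GGAAG. A match is a run of letters only, and no binding was measured.

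Of 35 genes that modify, cross-link and export collagen, 28 were tested, 1 rose and 1 fell, and the median log2 fold change was 0.24. For this and the next 3 lists, 4.79% of all genes tested were called, with a median of 0. LOXL2, which cross-links collagen, had 63 and 100 counts against 261 and 300, with a log2 fold change of 1.56 (SE 0.35, adjusted p = 0.03, edgeR's quasi-likelihood test). It did not pass without RUNX1::ERG replicate 1 (1.76, adjusted p = 0.075) or without replicate 2 (1.31, adjusted p = 0.16). COLGALT2, which adds galactose to collagen, fell from 7490 and 3374 counts to 2391 and 2593 (log2 fold change -1.42, SE 0.35, adjusted p = 0.045). Empty vector replicate 1 carried that fall, which was -0.57 without it (adjusted p = 0.12), and it did not pass without RUNX1::ERG replicate 1 (-1.25, adjusted p = 0.12) or with library totals, voom or DESeq2 (adjusted p = 0.074, 0.079 and 0.21). The collagen chaperone SERPINH1 and the hydroxylase subunit P4HB did not pass (adjusted p = 0.38 and 0.95).

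Among 34 genes of basement membrane and matrix partners, 17 were tested, 4 rose and none fell, with a median log2 fold change of 0.45. VWF, which tethers platelets to collagen, had 1 and 8 counts against 311 and 277, and passed the filter only through its RUNX1::ERG counts. THBS1, a platelet granule protein that binds collagen, had 87 and 176 against 1972 and 1883, a log2 fold change of 3.65 (SE 0.29, adjusted p = 7.3e-05, edgeR's quasi-likelihood test). VTN (vitronectin) rose by 2.73 and FN1 (fibronectin) by 0.91 on the same scale. FN1 did not pass without RUNX1::ERG replicate 2 (0.54, adjusted p = 0.32) or with voom (0.88, adjusted p = 0.056). The other core proteins of basement membranes were unlike each other in level: HSPG2 (perlecan) and AGRN (agrin) had 8498 to 16274 and 22235 to 32444 counts and did not pass, while NID1 (nidogen), which links laminin to collagen IV, had at most 8.

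Of 25 receptor genes, 20 were tested and 1 rose, a share near that of all genes tested, with a median log2 fold change of 0.5. It was ITGA10, an integrin α chain that binds collagen, with 25 and 28 counts against 425 and 273 (3.44, SE 0.37, adjusted p = 0.00049, edgeR's quasi-likelihood test). Its partner ITGB1 had 20947 to 31880 counts and did not pass (0.22, adjusted p = 0.52). The other collagen-binding integrin chains ITGA1, ITGA2 and ITGA11 had at most 14 counts. GP6, the collagen receptor of platelets, was present in both groups, with 1911 and 1509 counts against 3601 and 2428, and did not pass (0.53, SE 0.22, adjusted p = 0.24).

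Among 30 genes of matrix-degrading enzymes and their inhibitors, 21 were tested, 2 rose and 2 fell, with a median of -0.03. MMP15 and MMP17, membrane-bound metalloproteinases, fell by 0.9 and 1.23 on the log2 scale (adjusted p = 0.017 and 0.029, edgeR's quasi-likelihood test). Neither passed without RUNX1::ERG replicate 1 (adjusted p = 0.087 and 0.15), and MMP17 did not pass without replicate 2 either (0.096). HPSE, which cuts heparan sulfate, had 8 counts per empty vector library against 94 and 91 (3.26, SE 0.53, adjusted p = 0.0064). MMP13, a collagenase, had no count in either empty vector library and 33 and 12 in the RUNX1::ERG libraries, at least 6.05-fold higher against the floor. It was not tested without RUNX1::ERG replicate 1, where it fell under the filter. HPSE and MMP13 passed the filter only through their RUNX1::ERG counts. With at least 10 counts in every library, 2 genes of this list were called, MMP15 and MMP17, both lower.

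**Figure D5:**
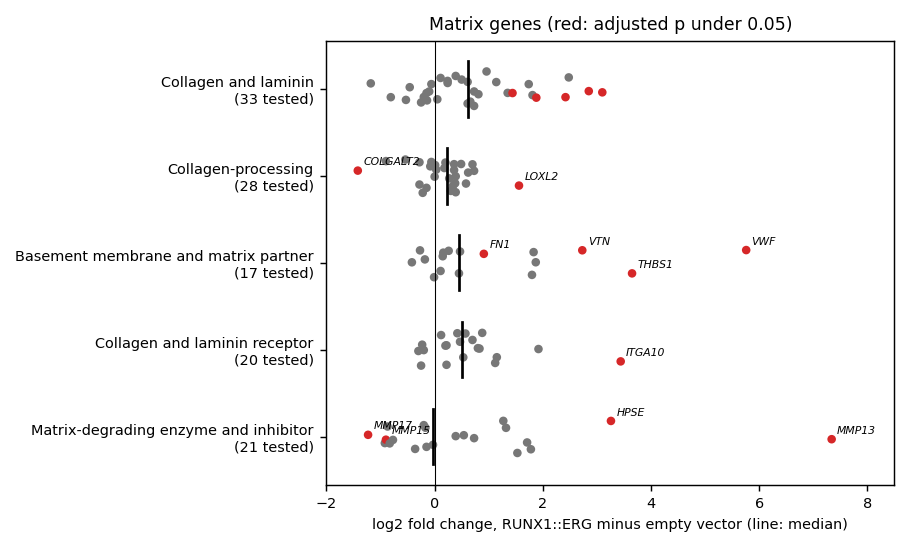
Log2 fold change (RUNX1::ERG minus empty vector) of each tested gene in the collagen and laminin family and in the 4 lists of genes that process, accompany, bind or degrade matrix, with called genes in red and the median as a line. The medians run from -0.03 to 0.61, the called partner and receptor genes lie to the right, and the fitted value of MMP13, whose empty vector libraries had no count, is not a measured size.

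Markers of cell types that make much collagen were examined in the same libraries. Of 10 fibroblast genes, LUM, POSTN and FAP had no count in any library, PDGFRA had at most 2 counts, PRRX1 4 and DCN 8. THY1, found on fibroblasts and on some blood progenitors, had no count in either empty vector library and 14 and 10 in the RUNX1::ERG libraries, at least 3.3-fold higher against the floor, and did not pass (adjusted p = 0.063, edgeR's quasi-likelihood test). TWIST1 had 22 and 52 counts against 62 and 50, and PDGFRB had 4 and 36 against 7 and 14, with overlapping groups for both. The 10 fibroblast genes summed to 6.79 and 8.17 normalized CPM with the empty vector and 13 and 13.9 with RUNX1::ERG, mostly from S100A4, which rose by 0.9 on the log2 scale (adjusted p = 0.046, edgeR's quasi-likelihood test) and is also made by blood cells. That call was lost without any of 3 libraries (adjusted p = 0.057 to 0.17) and with voom (0.052), and kept without empty vector replicate 2. Of 10 endothelial genes, KDR and TEK had at most 2 counts, and the other 8 were tested. Of these, 3 rose (PECAM1, VWF and ROBO4), where 4.79% of all genes tested were called, and the median log2 fold change was 1.89. In 7 of the 8, both RUNX1::ERG libraries lay above both empty vector libraries, where 25.1% of all genes tested did so. VWF and ROBO4 passed the filter only through their RUNX1::ERG counts. ROBO4 had at most 64 counts, did not pass with library totals (0.06) or voom (0.053), and fell under the filter without RUNX1::ERG replicate 1. The 10 genes summed to 136 and 163 against 349 and 223. PECAM1, which megakaryocytes also make, had 192 and 210 counts against 1964 and 1780, and EGFL7 gave most of the sum in every library. The part of these genes in the collagen values was not tested.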

How the data were processed

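WTS libraries of K562 cells transfected with the empty vector or RUNX1::ERG (2 each) were compared. For each library the authors deposited a file of raw counts by NCBI gene number. Per the submitters' processing notes, HISAT2 2.2.1, featureCounts 2.0.1 and hg19 were used. The annotation and strand setting are not given in the sources used here. Gene numbers were matched to RefSeq symbols (92.2% of 25702). GENCODE v44 (GRCh37) gave positions and canonical transcript lengths.

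Counts were scaled by TMM, filtered by filterByExpr (15394 genes kept) and compared with edgeR 4.0.16 in R 4.3.3 (quasi-likelihood test, two-sided, Benjamini-Hochberg adjustment over all genes tested, threshold 0.05). A standard error is the log2 fold change divided by the square root of F. The procedure was tested on simulated data. The replicates were taken as separate samples. They differed by far more than sampling noise (chi-square per degree of freedom 95.2 and 72.6).

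The members, gene lists and tests were chosen with earlier results of these data known, the lists from general knowledge. Members were named if called, at a mean of at least 5 CPM, or at 100 counts or more in a library, and collagen IV pairs and laminin chains whatever their values. From each other list up to 6 called genes were named, by size of change, with ERG, RUNX1 and MYC. Other members and SERPINH1, P4HB, HSPG2, AGRN, NID1, ITGB1, ITGA1, ITGA2, ITGA11, GP6, EGFL7 and the markers near 0 were chosen after their values were seen. The values of 1 member are not reported here. Alternatives were 2 other scalings, 2 other filters, DESeq2 1.42.0, limma 3.58.1 voom, a replicate block, halved counts and leaving out each library, where the lone library of a group is assumed to vary like the other group.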

Additional observations from a re-analysis of the deposited data

How the results depend on the processing

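Of 263 values of single members under the alternatives, 232 changed neither direction nor call, 24 passed where they had not before, 2 no longer passed and 5 changed sign. COL6A1 (1.24) and COL10A1 (2.63) no longer passed without RUNX1::ERG replicate 1. The sign changed, each time near 0, for LAMA5 (0.11 without empty vector replicate 1, 0.06 if RUNX1::ERG replicate 2 was left out, and as low as -0.30 otherwise), LAMB1 (-0.21 without empty vector replicate 2, -0.03 if RUNX1::ERG replicate 1 was left out, and up to 0.36 otherwise) and COL1A2 (-0.08 without empty vector replicate 1, and up to 0.32 otherwise). The cause was not tested.

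The counts of called genes moved more. With no filter, 1500 genes were called (962 higher and 538 lower) against 737 (560 and 177), 10 members (9 and 1), 5 processing, 7 partner and 6 receptor genes. DESeq2 called 1204 genes, 405 of them lower, 9 members, all higher, and 3 receptor genes. Labels do not say that a replicate number marks a shared day, and there are only 2 pairs. Same-numbered libraries had a correlation of 0.291 in their deviations, and crossed numbers had -0.291. With 2 libraries per group these values mirror each other by construction, so they cannot show a shared day. A replicate block gave 1733 genes (1082 higher and 651 lower), 11 members (10 and 1), 5 processing and 7 receptor genes. Library totals gave 103 lower genes and 1 processing gene, and voom gave 1 processing gene. At least 10 counts in every library gave 2 receptor and 2 degrading genes, and RLE scaling and halved counts gave 2 receptor genes each.

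As each library was left out, the counts ran from 286 to 1336 genes (228 to 922 higher, 58 to 602 lower), from 3 to 10 members (3 to 9 higher, 0 to 1 lower), and from 1 to 6 processing, 4 to 8 partner, 1 to 4 receptor and 1 to 8 degrading genes. The lowest count of all genes came without RUNX1::ERG replicate 1. The 23 members not tested had at most 32 counts, and whether they changed was not tested.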
